A study of Arabidopsis thaliana with 6 samples.

Results

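The comparison set leaves of the Arabidopsis thaliana mlo2 mlo6 mlo12 triple mutant against wild-type (WT) leaves, age by age. It used all 6 arrays of the series, 3 per genotype. Mature rosette leaves were taken 5, 6 and 7 weeks after sowing from plants grown under normal conditions, and each genotype and age had 1 array. The mutant and WT arrays of one age formed a pair, which gave 3 pairs. The labels name no mutant alleles, no ecotype and no number of plants per array, and do not say that arrays came from separate cultures. The spread behind each genotype p-value is how the mutant minus WT difference varied over the 3 ages. It holds any change of that difference with age as well as array noise, which may be technical. It does not measure the spread between plants of one age. Values are log2 expression values of Affymetrix probe sets, and a difference is mutant minus WT on the log2 scale, where 1 is 2-fold.

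MLO proteins span the plasma membrane and are needed by powdery mildew fungi to enter epidermal cells. Plants without functional MLO2, MLO6 and MLO12 are strongly resistant to these fungi, and older mlo2 leaves are known for spontaneous callose deposits and early senescence. The series title places the arrays in a study of indolic metabolites, tryptophan-derived compounds used in antifungal defence.

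The table held 22746 probe sets after 64 controls were set aside, and 13513 of them belonged to 1 gene in the platform annotation. Only 1580 of these carried a gene symbol, and 11933 carried a locus number alone, so roles below are given for the first kind, with a few added from RefSeq synonyms. Array medians lay between 3.80 and 3.87. The WT array of 6 weeks stood apart: its correlation with the other 5 averaged 0.970, where the rest averaged 0.975 to 0.982. In bulk leaves, fewer cells of a type and less RNA per cell cannot be told apart. In the annotation used, which does not list 8730 probe sets, none was assigned to a targeted gene alone, so the genotype was not checked here. Of the mesophyll markers 4 of 13 were measured, and SBPASE, a Calvin cycle enzyme, read 9.69 to 11.2 over the 6 arrays. Both measured guard cell markers and the 1 measured marker of dividing cells averaged under 4, and the markers of epidermis, vasculature, flower and root had 0 measured members.

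The first question was how far the genotype difference repeated from age to age. At 5 weeks 757 probe sets (3.33%) were at least 1.5-fold higher in the mutant and 806 (3.54%) lower. At 6 weeks 2513 (11%) were higher and 1720 (7.56%) lower, and at 7 weeks 1035 (4.55%) and 635 (2.79%). At that size and in one direction at all 3 ages there were 73 higher (0.321% of all probe sets) and 19 lower (0.0835%). The 73 made up 9.64% of the probe sets higher at 5 weeks, 2.90% of those at 6 weeks and 7.05% of those at 7 weeks. The 19 made up 2.36%, 1.1% and 2.99% of the lower ones. At least 2-fold one way at every age were 16 higher (0.0703%) and 0 lower. The differences of single ages correlated weakly across the 22746 probe sets, which share their probes but no arrays. Pearson's r was 0.26 between 5 and 7 weeks, 0.15 between 6 and 7 weeks and -0.068 between 5 and 6 weeks, with Spearman's rho at 0.21, 0.12 and -0.11.

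**Figure D1:**
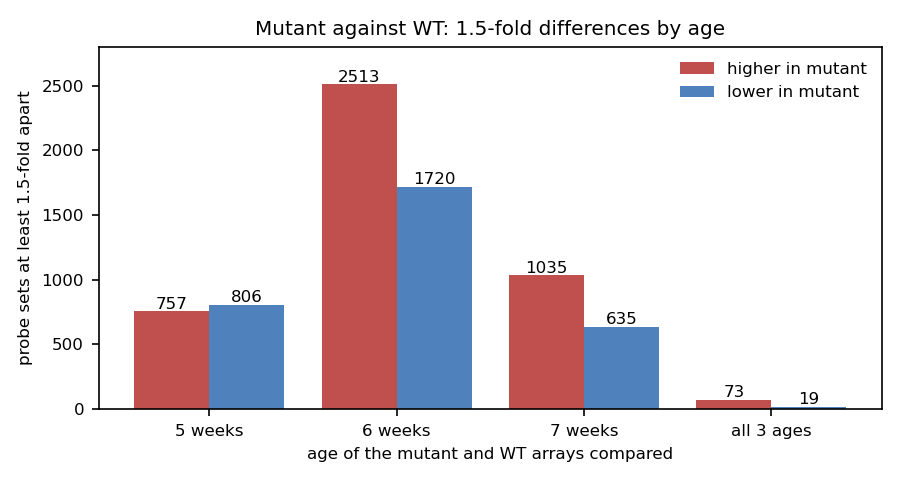
Number of probe sets (vertical axis) at least 1.5-fold higher or lower in the mutant than in WT at each age and at all 3 ages in the same direction, out of 22746. The 6-week pair has the most, 2513 and 1720, and 73 and 19 are shared by all pairs.

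The limma fit, with age as a factor, found no genotype effect past the adjusted threshold of 0.05 (0 of 22746, 0.0%), the lowest adjusted p being 0.244. Without adjustment 1482 lay under 0.05 (6.52%), 894 of them higher (3.93%) and 588 lower (2.59%). In limma-trend the count past the adjusted threshold was 1, and among the 5684 probe sets with a mean of at least 6 the count was 3. The adjusted p-values of the 92 probe sets at least 1.5-fold apart at every age were 0.244 to 0.72. All are therefore given as values. An exact sign-flip test over 3 pairs cannot go below a two-sided p of 0.25, so none was used. The change of the difference from 5 to 7 weeks passed for 0 probe sets, and for 233 the p before adjustment was under 0.05.

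The share of each direction differed with the level of the probe set. Counting sign alone, 6577 probe sets (28.9%) had one direction at all ages, of which 2769 were higher (12.2%) and 3808 lower (16.7%). Among the 11795 with a mean under 4, 945 were higher and 2548 lower, with a median smallest difference of 0.058 for the lower ones. From 4 to 6 the counts were 903 higher and 601 lower, and from 6 upwards 921 higher and 659 lower. The lower majority lay among the dim probe sets. As shares, 8.01% were higher and 21.6% lower under a mean of 4, and 16.2% and 11.6% from 6 upwards. The shares over all genes given below for classes and lists are not matched for level. A second quantile normalization gave 3096 higher and 3297 lower.

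Of the 73 higher and 19 lower probe sets, 35 (0.259% of those with 1 gene) and 12 (0.0888%) belonged to 1 gene, and 9 and 4 of these had a symbol. The 35 had estimates from 0.74 to 2.08, with a median of 1.1, and the 12 from -1.1 to -0.74, with a median of -0.85. To describe functions beyond this short list, genes with a symbol were taken down to 1.25-fold at every age, a limit set after the values were seen. It gave 38 genes higher and 10 lower, 7 of them plastid-encoded, where 1.38% of all probe sets were higher and 0.681% lower by that rule. Of the 38, 22 had every mutant array above every WT array, and of the 10, 3 had every mutant array below every WT array. Over all probe sets 3.42% and 5.5% were separated in this way. The rule that chose the 38 and the 10 itself favours such separation, so these counts are only a description. The same holds for each gene below whose genotypes are said not to overlap, since it was chosen for one direction at every age.

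**Figure D2:**
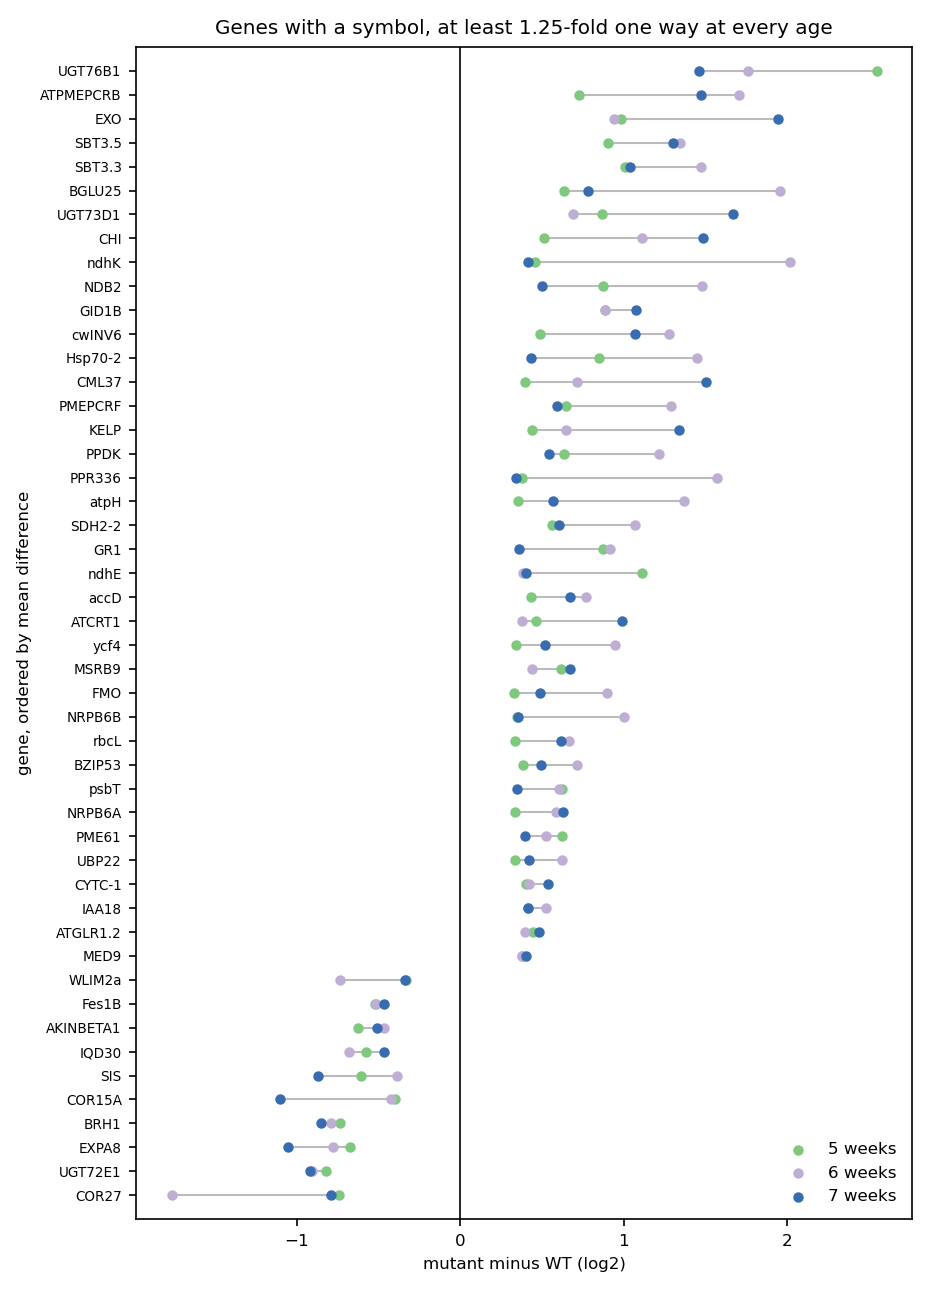
Mutant minus WT difference (log2, horizontal axis) at 5, 6 and 7 weeks for the 48 genes with a symbol that were at least 1.25-fold apart in one direction at every age, ordered by their mean. Grey lines join the lowest and highest age, and the 38 genes to the right of 0 outnumber the 10 to the left.

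Among genes of small-molecule conjugation and scopoletin synthesis, UGT76B1 and AT3G13610 were higher in the mutant at every age and UGT72E1 was lower. UGT76B1, which glucosylates salicylic acid, N-hydroxypipecolic acid and isoleucic acid, had log2 values of 3.64, 3.98 and 3.33 in WT, in order of age, and of 6.19, 5.74 and 4.78 in mlo2 mlo6 mlo12. The genotypes did not overlap, and the estimate was 1.92 ± 0.24 (SE, 3 arrays per genotype), or 3.79-fold. AT3G13610, listed in RefSeq as F6'H1, the feruloyl-CoA hydroxylase that makes the scopoletin precursor, read 6.05, 6.45 and 5.45 in WT, and mutant values were 7.53, 8.39 and 7.02. Every mutant array was above every WT array. Its limma adjusted p was 0.66 over all probe sets and ranged from 0.0451 to 0.999 over the alternatives. The value of 0.0451 came from the probe sets with a mean of at least 6 over all arrays. Its WT arrays averaged 5.985, so it entered that set through its mutant arrays, and the 0.0451 is no support for the difference.

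UGT73D1, a further UDP-glycosyltransferase, read 2.83, 3.49 and 3.58 for WT against 3.70, 4.18 and 5.25 for the mutant, with the largest difference, 1.67, at 7 weeks. UGT72E1, which glucosylates the aldehyde precursors of lignin, ran the other way. It read 7.00, 7.89 and 7.88 in WT, and mutant values were 6.18, 6.99 and 6.96, with differences of -0.82, -0.91 and -0.92 and no overlap. Its relative UGT72E3 differed by -0.18, -0.19 and -0.19, at a level under 3 on all arrays, and UGT72E2 had no common direction, at 0.06, -0.26 and 0.64. F6'H2 (AT1G55290), the second feruloyl-CoA hydroxylase gene, differed by 0.04, 0.03 and 0.27. BGLU42, a beta-glucosidase that releases scopoletin in roots, was at -0.01, 0.18 and 0.50. The flavonol rhamnosyltransferase UGT78D1 was higher by 0.90, 0.66 and 0.15.

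Proteases and enzymes of the cell wall formed the next group. The subtilases SBT3.3, which has been linked to immune priming, and SBT3.5, which can process a pectin methylesterase, lie on chromosome 1 with 1 gene between them. SBT3.3 read 4.69, 5.46 and 5.48 for WT against 5.70, 6.93 and 6.51 for the mutant. SBT3.5 read 4.97, 5.72 and 4.69 in WT, and mutant values were 5.87, 7.07 and 5.99. Neither gene overlapped between the genotypes, where 3.42% of all probe sets were separated in the higher direction. The other 8 measured subtilases had no common direction over the ages.

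Pectin methylesterases remove methyl groups from wall pectin, which changes its stiffness. ATPMEPCRB (PME41) was higher by 0.72, 1.70 and 1.47, from WT levels of 3.91, 3.53 and 3.27. PMEPCRF was higher by 0.64, 1.29 and 0.59, and PME61 by 0.62, 0.52 and 0.40. All 3 separated the genotypes completely, as 3.42% of all probe sets did in the higher direction. The other measured genes of the class were ATPMEPCRD, at -0.49, -0.52 and 0.03, and AT4G02300, at -0.04, -0.08 and 0.12. EXO (EXORDIUM), an apoplastic growth protein under brassinosteroid control, was higher by 0.98, 0.94 and 1.94, and the genotypes did not overlap. cwINV6, a fructan exohydrolase of the wall invertase family, was higher by 0.49, 1.28 and 1.07. The expansins, which loosen walls, were divided. EXPA8 read 9.21, 9.84 and 9.53 for WT against 8.54, 9.06 and 8.48 for the mutant, without overlap, while EXLA1 was higher by 1.03, 0.09 and 0.81. Of 19 measured expansins 3 were higher and 3 lower at all ages (15.8% each), where 11.3% and 17.9% of all genes were.

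**Figure D3:**
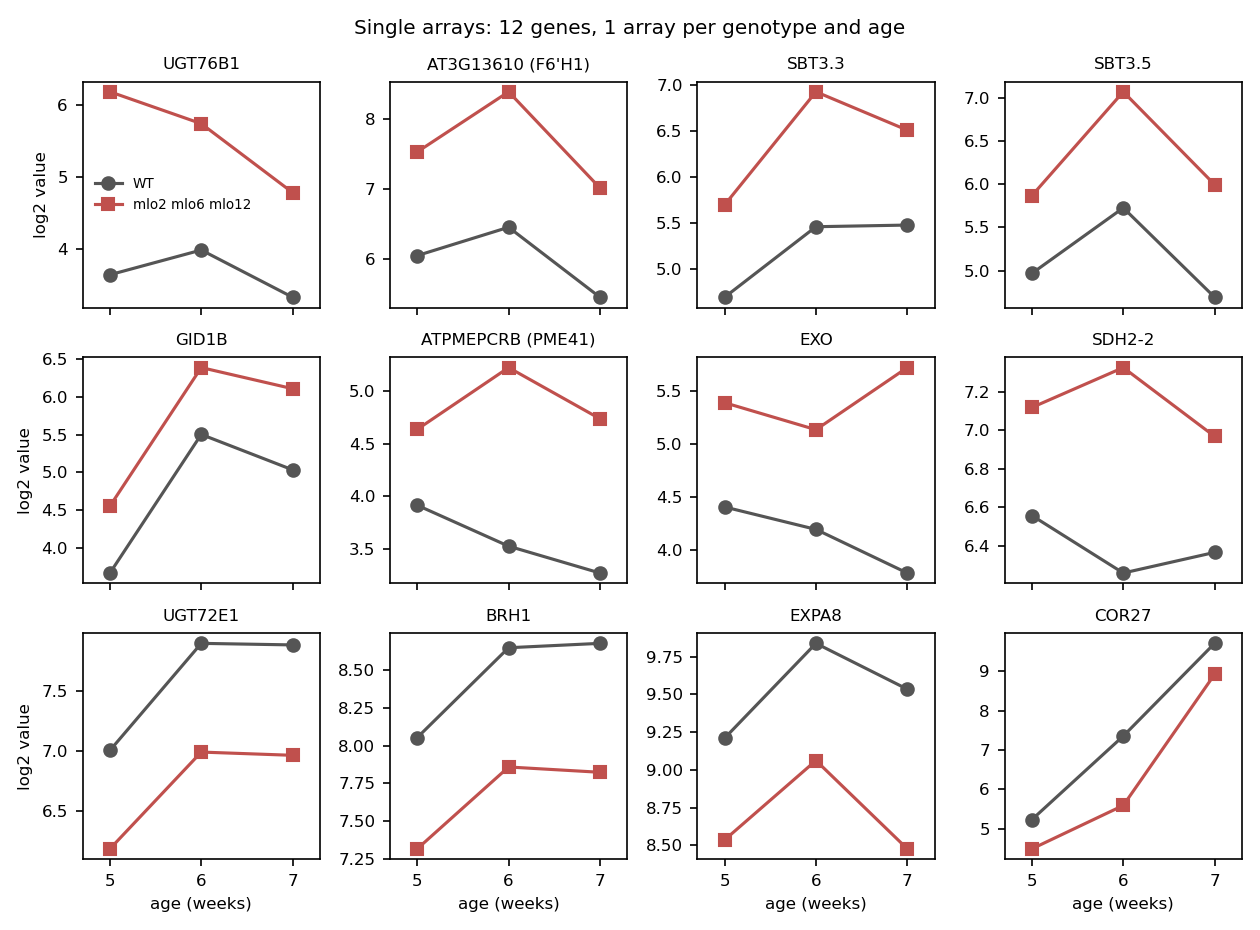
Log2 value (vertical axis) on each of the 6 arrays against age in weeks for 12 genes, grey circles for WT and red squares for mlo2 mlo6 mlo12, with lines joining arrays of one genotype. In each panel the mutant stays on one side of WT at 5, 6 and 7 weeks, while the level itself moves with age, as for COR27 from 5.23 to 9.71 in WT.

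Among hormone and signalling genes, the gibberellin receptor GID1B had close to the same difference at each age, 0.89, 0.89 and 1.07. It read 3.67, 5.50 and 5.04 in WT, and mutant values were 4.55, 6.39 and 6.11, and the groups overlapped, since both genotypes read lowest at 5 weeks. The other receptors, GID1A at -0.31, 0.86 and -0.59 and GID1C at -0.25, -0.13 and 0.21, had no common direction. IAA18, a repressor of auxin responses, was higher by 0.41, 0.52 and 0.41. The calmodulin-like genes CML37, at 0.40, 0.71 and 1.5, and CML41, at 0.81, 0.14 and 1.79, were furthest apart at 7 weeks. CML37 was dim, with a mean of 3.4. CML43 was higher by 0.50, 0.06 and 1.12 and CML30 lower by 0.34, 0.09 and 0.32, and the other 4 of 8 measured members varied in sign. ATGLR1.2, a glutamate receptor-like channel gene, was higher by 0.44, 0.39 and 0.48 at levels of 2.85 to 3.69.

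The chitinase gene CHI (AT2G43570) read 9.19, 10.1 and 9.98 for WT against 9.70, 11.2 and 11.5 for the mutant. The 5-week mutant array lay below the later WT arrays, so the groups overlapped. The beta-glucosidase BGLU25 was higher by 0.64, 1.96 and 0.78, with its widest gap at 6 weeks.

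A group of 11 nuclear genes of mitochondrial respiration was formed after the values were seen, so its counts are a description of chosen genes. It holds alternative NAD(P)H dehydrogenases, complex II subunits and cytochrome c. Of the 11, 7 were higher at all ages (63.6%, with 11.3% over all genes) and 0 lower, and the median estimate was 0.46, with -0.035 over all genes. SDH2-2, an iron-sulphur subunit of complex II, read 6.56, 6.26 and 6.37 in WT, and mutant values were 7.12, 7.33 and 6.97. NDB2, an external NAD(P)H dehydrogenase of the inner membrane, read 6.34, 6.65 and 6.85 for WT against 7.21, 8.13 and 7.35 for the mutant. Both genes separated the genotypes, as did cytochrome c gene CYTC-1, higher by 0.40, 0.42 and 0.54. CYTC-2 was higher by 1.54, 0.18 and 0.67, SDH2-1 by 0.23, 0.98 and 0.42, SDH1-1 by 0.18, 1.15 and 0.41 and NDC1 by 0.05, 0.81 and 0.16. The other NDB genes did not share the direction of NDB2. NDB1 was at -0.53, 0.61 and -0.43, NDB3 at 0.31, 0.24 and -0.24 and NDB4 at 0.15, -0.21 and -0.40. SDH1-2, at 0.00, -0.01 and 0.12, was close to 0 at a mean level of 2.53. PPDK, which turns pyruvate into phosphoenolpyruvate, was higher by 0.63, 1.22 and 0.54.

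Genes encoded in the organelles differed by organelle. Of 15 mitochondria-encoded genes 1 was higher and 7 lower (46.7%, with 17.9% over all genes) at all ages, with a median estimate of -0.22. They include nad5 at -0.77, -0.21 and -0.58 and nad4L at -0.50, -0.18 and -0.56, subunits of complex I, and cox1, of complex IV, at -0.53, -0.68 and -0.07. Of these 15, 8 had a mean under 4, a level at which 21.6% of all probe sets were lower at all ages. Of 69 plastid-encoded genes 30 were higher (43.5%, with 11.3% over all genes) and 3 lower at all ages. Only 4 of the 69 had a mean under 4, and from a mean of 6 upwards 16.2% of all probe sets were higher. accD, of fatty acid synthesis, read 7.81, 6.60 and 6.41 in WT, and mutant values were 8.25, 7.37 and 7.08. rbcL, the large subunit of Rubisco, was higher by 0.33, 0.66 and 0.61, and the ATP synthase gene atpH by 0.35, 1.37 and 0.57. The NDH complex genes ndhK and ndhE were higher by 0.45, 2.02 and 0.42 and by 1.11, 0.39 and 0.40. psbT of photosystem II was higher by 0.62, 0.60 and 0.35, and ycf4, for photosystem I assembly, by 0.34, 0.95 and 0.52. The 25S rRNA control, another transcript without a long poly-A tail, read 7.51, 4.08 and 3.87 for WT against 6.59, 5.39 and 5.70 for the mutant, and its part in these values was not tested.

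**Figure D4:**
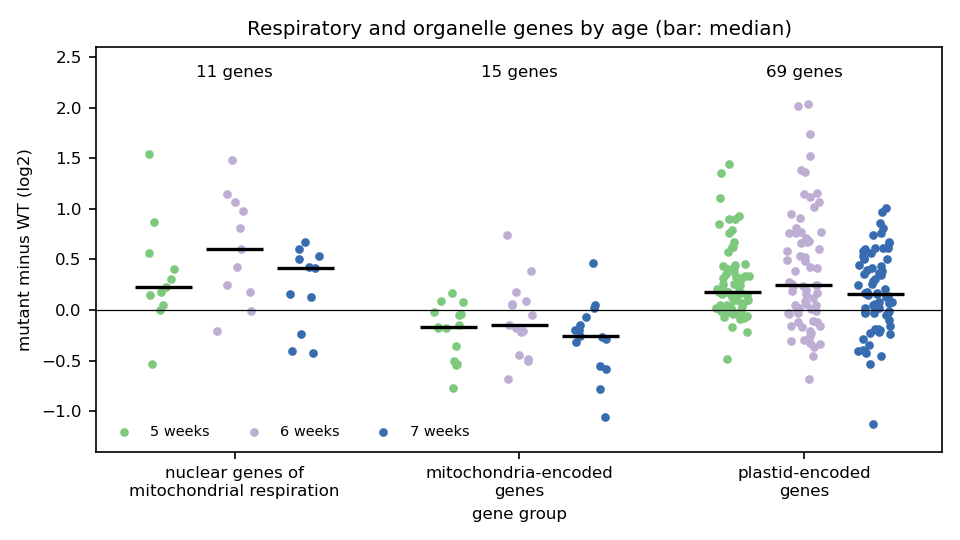
Mutant minus WT difference (log2, vertical axis) at each age for 11 nuclear genes of mitochondrial respiration, 15 mitochondria-encoded and 69 plastid-encoded genes; each point is a gene and the bar the median. The medians are 0.23, 0.60 and 0.41 for the first group, -0.17, -0.14 and -0.25 for the second and 0.18, 0.25 and 0.15 for the third at 5, 6 and 7 weeks.

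Several redox and folding genes were among the higher ones. Glutathione reductase GR1 was higher by 0.87, 0.91 and 0.36 and the methionine sulfoxide reductase MSRB9 by 0.61, 0.44 and 0.67. The glutaredoxins GRXC1 and GRXC2 were higher by 0.15, 0.70 and 0.36 and by 0.06, 0.56 and 0.52. GRXC2 stayed at 10.3 on all WT arrays and read 10.3, 10.8 and 10.8 in the mutant. Of 13 glutaredoxins and thioredoxins 3 were higher and 0 lower at all ages, where 11.3% and 17.9% of all genes were. Of 5 ER folding genes, ATERDJ2A, ATERDJ2B and ATERDJ3B, co-chaperones of the ER, were higher at all ages (60%, with 11.3% over all genes). ATERDJ2A differed by 0.14, 0.69 and 0.12 and ATERDJ2B by 0.17, 0.68 and 0.50. ATERDJ3B differed by 0.05, 1.81 and 0.49. All 3 had small differences at 5 weeks and the widest gap at 6 weeks. The chaperone Hsp70-2 was higher by 0.85, 1.45 and 0.44, and Fes1B, an HSP70 nucleotide exchange factor, lower by 0.52, 0.52 and 0.46.

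Genes for gene expression were also among the 38. NRPB6A and NRPB6B, which encode a subunit shared by RNA polymerases II, IV and V, were higher by 0.33, 0.58 and 0.63 and by 0.35, 1.0 and 0.35. MED9, a Mediator subunit, was higher by 0.38, 0.38 and 0.40 at a mean level of 3.645. The coactivator gene KELP was higher by 0.44, 0.65 and 1.33 and the transcription factor gene BZIP53 by 0.38, 0.72 and 0.49. UBP22, a ubiquitin-specific protease that acts on histone H2B, was higher by 0.34, 0.62 and 0.42. PPR336, a mitochondrial pentatricopeptide repeat protein, was higher by 0.38, 1.57 and 0.34, with a WT level of 3.74 at 6 weeks against 5.34 and 5.28 at the other ages. ATCRT1 was at 0.46, 0.38 and 0.99 and FMO, listed as a flavin monooxygenase, at 0.33, 0.90 and 0.49.

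On the lower side, UGT72E1 and EXPA8 were joined by the following genes. BRH1, a brassinosteroid-responsive RING-H2 gene, read 8.05, 8.65 and 8.68 in WT, and mutant values were 7.32, 7.86 and 7.82, and the ranges did not touch. COR27, a cold-regulated gene of the clock and of light responses, read 5.23, 7.35 and 9.71 for WT against 4.48, 5.59 and 8.92 for the mutant. Its level moved far more with age than with genotype, and the gap was widest, at -1.76, at 6 weeks. COR15A, a protective protein of the chloroplast stroma, was lower by 0.40, 0.42 and 1.1, and COR15B by 0.67, 0.15 and 0.99.

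AKINBETA1, a subunit of the energy-sensing kinase SnRK1, was lower by 0.63, 0.46 and 0.51. SIS, a salt-induced serine-rich gene, was lower by 0.61, 0.39 and 0.87, and WLIM2a, an actin-bundling protein, by 0.33, 0.73 and 0.34. The calmodulin-binding IQ-domain gene IQD30 was lower by 0.57, 0.68 and 0.46. Of 15 measured IQ-domain genes 4 were lower at all ages (26.7%, with 17.9% over all genes) and 0 higher (11.3% over all genes). A mean under 4, at which 21.6% of all probe sets were lower at all ages, was found for 8 of the 15. The member iqd33 was at -0.22, -0.57 and -0.25.

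Loci known here by number alone made up 26 of the 35 higher genes and 8 of the 12 lower ones. AT1G43910 read 5.06, 5.32 and 4.45 in WT, and mutant values were 7.49, 7.72 and 5.85, 4.23-fold on average. AT3G48640 read 3.97, 3.38 and 3.48 for WT against 5.31, 5.27 and 4.77 for the mutant. AT5G39670 read 6.72, 7.65 and 6.37 in WT, and mutant values were 7.78, 9.04 and 8.25. None of these 3 overlapped between the genotypes, where 3.42% of all probe sets were separated in the higher direction. AT1G65690 was higher by 0.93, 1.48 and 2.07 and AT5G38900 by 0.94, 1.19 and 1.72, both furthest apart at 7 weeks. AT5G17760 was higher by 1.02, 2.09 and 0.95, with the widest gap at 6 weeks, and AT2G44240 by 2.29, 0.86 and 1.95, with the narrowest there. Nearly even over the ages were AT3G29240, at 1.03, 1.04 and 0.77, and AT1G75670, at 0.69, 0.87 and 0.95. AT3G60420 had 2 probe sets, one at 0.74, 1.32 and 0.77 and a dim one, with a mean of 2.24, at 0.01, -0.10 and -0.17.

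The lower loci were less spread. AT3G03870 was lower by 0.77, 0.95 and 0.94, AT1G12845 by 0.99, 1.06 and 0.69 and AT1G67910 by 0.70, 1.2 and 0.83. AT1G51090 was lower by 0.62, 0.90 and 1.08, AT2G27830 by 0.86, 0.96 and 0.60 and AT4G19390 by 0.72, 0.92 and 0.66. AT2G46490 and AT1G77060 completed the 8, at -0.62, -1.01 and -0.65 and at -0.97, -0.64 and -0.60. A further 38 higher and 7 lower probe sets of the same size were unnamed. The one of them with the largest difference at its narrowest age differed by 2.05, 2.25 and 2.16.

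Gene classes were read against all 13356 genes, 1 probe set each, of which 11.3% were higher and 17.9% lower at all ages. These shares were not matched to the level of each class, and dim probe sets were more often lower. UDP-glycosyltransferases had 6 of 51 higher and 14 lower, with a median estimate of -0.094, so most members were not higher as UGT76B1 and UGT73D1 were. Of the 51, 28 had a mean under 4. Cytochrome P450 genes had 2 of 23 higher and 4 lower. CYP71B36 was at 0.28, 0.25 and 0.35 and CYP84A4 at -0.29, -0.46 and -0.65. Of 23 bZIP factors 4 were higher and 3 lower. HYH, the homologue of the light regulator HY5, was at 1.96, 1.14 and 0.21, so its gap was narrowest at 7 weeks. Its WT values were dim, at 2.5 to 2.6. Of 18 genes matched by symbol as chitinase, defensin or pathogenesis-related, 1 was higher, CHI, and 4 lower. This match also took in PDF1A, a peptide deformylase, which had no common direction. The 16 SWEET sugar transporters had 0 higher and 2 lower. The 14 genes matched by symbol as LEA and cold-regulated had 0 higher and 3 lower. That match also took in LEP and LCR, which are other kinds of gene and had no common direction.

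**Figure D5:**
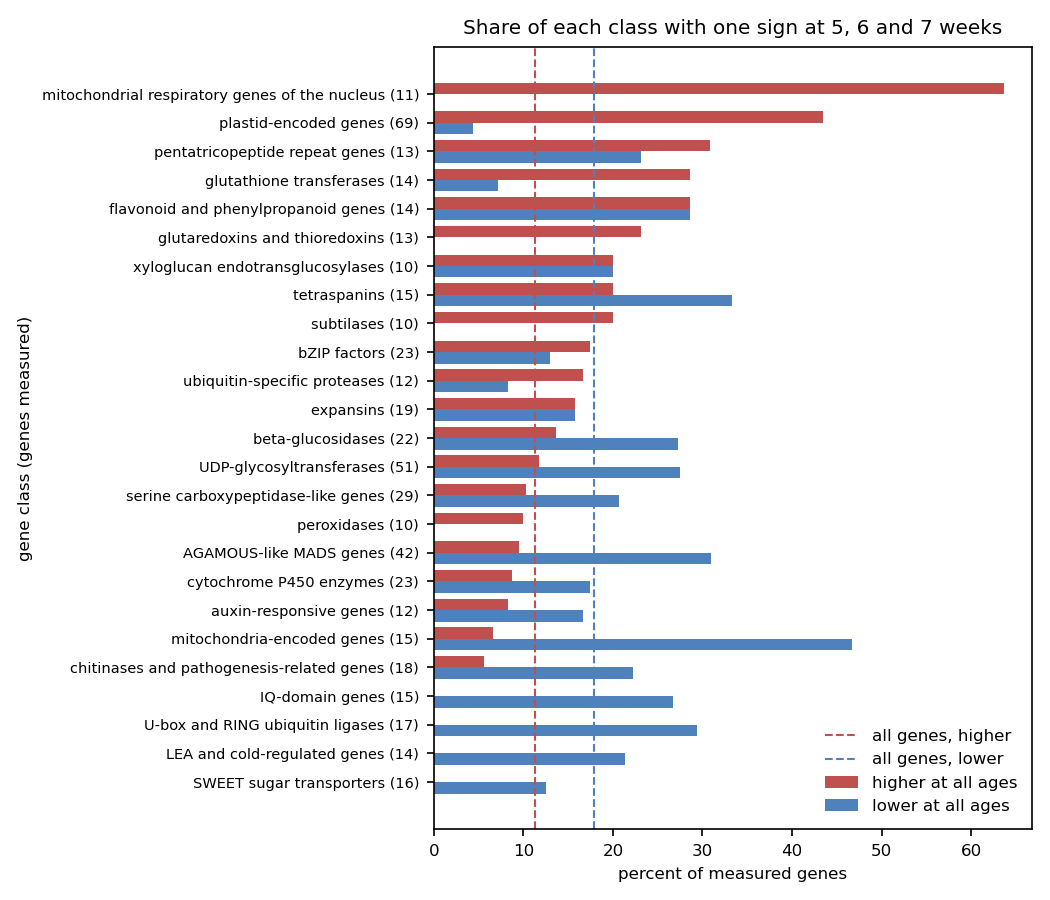
Percent of the measured genes of each class (horizontal axis) that were higher (red) or lower (blue) in the mutant at all 3 ages, for classes of at least 10 genes, with the number measured in brackets; dashed lines give the share among all genes, 11.3% and 17.9%. Plastid-encoded genes have 43.5% higher and mitochondria-encoded genes 46.7% lower. The bar of nuclear respiratory genes (63.6%) is of a group formed after its values were seen. Classes were matched by symbol, so some hold a few genes of another kind. The dashed shares are not matched to the level of each class.

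Lists of defence and stress genes were thin, since few members could be named. The shares to read them against are again 11.3% higher and 17.9% lower at all ages. Of the pattern-triggered immunity list 6 of 14 members were measured. The receptor EFR, at 0.18, 0.37 and 0.64, and the kinase BIK1, at 0.15, 0.43 and 0.51, were higher at all ages, and the other 4, PUB22, PUB23, PUB24 and WRKY22, had mixed signs. Of the salicylic acid list 3 of 21 were measured, and UGT76B1 alone kept one sign. GRX480 was at 1.1, -0.54 and 0.97 and SAG101 at -0.48, 0.65 and 0.59. Of the 4 measured jasmonate genes 0 had an estimate above 0, where 5482 of all 13356 genes did, and their median was -0.28. The thionin gene THI2.1 alone kept one sign, at -0.22, -0.12 and -0.47. The defensins PDF1.2 and PDF1.2b were lower at 5 and 6 weeks and higher at 7 weeks. The senescence genes WRKY53, WRKY6 and SAG29 had mixed signs; WRKY53 was at -0.58, 1.08 and 1.84. Of the indolic list 1 of 18 was measured, UGT74B1 of glucosinolate synthesis, at -0.88, 0.72 and 0.32. Of 9 ATG8 autophagy genes 0 were higher and 3 lower at all ages: ATG8C by 0.29, 0.51 and 0.21, ATG8F by 0.38, 0.09 and 0.15 and ATG8E by 0.18, 1.42 and 0.04. In the cold list 3 of 5 were lower at all ages. This list shares members with the LEA and cold-regulated class, so their counts are not separate results. Over all genes tested, 0 members of these lists passed the adjusted threshold.

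Many genes that differed one way at 5 and 7 weeks did not do so at 6 weeks. At 5 and 7 weeks together 185 probe sets were at least 1.5-fold higher in the mutant and 119 lower. At 6 weeks 61 of the 185 and 72 of the 119 had the opposite sign. Of the 185, 73 were also 1.5-fold higher at 6 weeks and 50 were higher by less. Of the 119, 19 were also 1.5-fold lower at 6 weeks and 28 were lower by less. How often signs turned at 6 weeks over all probe sets was not counted. Genes with a symbol among those that turned were COR47, a dehydrin, at -1.19, 0.27 and -1.18, LTI30, another dehydrin, at -1.1, 0.92 and -0.76, and the auxin gene IAA29, at -1.23, 0.40 and -1.47. The clock genes GI and TIC were at -0.92, 0.16 and -0.61 and at -0.90, 0.32 and -0.68. On the higher side GRX480 and LHCB4.3, a light-harvesting protein at 1.2, -0.52 and 0.83, turned in the same way. These genes were picked after their values were seen, and the part of the 6-week WT array in them was not tested.

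Genes near the targeted loci were looked at by their order on the chromosome, since neighbours may be carried along when mutants are crossed. Within 50 genes on each side, 49 genes were measured around MLO2, 53 around MLO6 and 59 around MLO12. Of these 7, 6 and 11 were higher and 9, 11 and 5 lower at all ages, where 11.3% and 17.9% of all genes were. At every age 0 were 1.5-fold apart, where 0.404% of all probe sets were, a share at which so few genes would often give 0. The genes around MLO6 included PPR336, described above as higher at every age. Whether neighbours were carried along was not tested.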

How the data were processed

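Gene expression was measured on 6 Affymetrix arrays, 1 for each genotype and age. The deposited log2 values were made by the authors with RMA, per the submitters' processing notes; neither its version nor its annotation is known here. A range of 1.72 to 13.4 shows the scale. RMA aligns the arrays' distributions and compresses dim probe sets, and the number of arrays limits precision.

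The genotype effect came from limma 3.58.1 in R 4.3.3 with age as a factor (2 residual degrees of freedom), eBayes and Benjamini-Hochberg adjustment over 22746 probe sets at 0.05. The code was tested on simulated data. Ages come from the labels, and arrays of the same age were taken as pairs on that ground. Deviations from the genotype means of same-age arrays correlated at 0.605, 0.174 and 0.436. Between ages they correlated at -0.554 to 0.265, and the WT array of 6 weeks was closer to the mutant array of 7 weeks (0.265) than to that of its own age. Counts over ages, classes and lists are descriptions. Members, classes and lists were chosen with earlier results of these data known. Class genes were matched by symbol and RefSeq synonym, with the probe set of highest mean. Named genes were the 25 highest and 20 lowest by smallest difference over ages, up to 4 per class, and the 6 of smallest p per direction; every other gene named, such as further class and list members, was chosen after its values were seen. RefSeq entries (TAIR10.1) were found for 13436 of 13513 probe sets. Among the other probe sets 503 had several genes and 8730 were not listed in the annotation, and none of these was named. No promoter or protein sequences were used here, so promoter motifs were not analysed here. Alternatives were no age term, age as a number, limma-trend, limits on the mean of 4 and 6, 2 further normalizations, array weights and leaving out each age.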

Additional observations from a re-analysis of the deposited data

How the results depend on the processing

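The 152 genes of the rule were chosen for one sign at all 3 ages, which fixes the sign of their means in most alternatives, so their kept direction says nothing of stability. Of them 1 passed an adjusted p of 0.05 under 1 alternative, AT3G13610 at a mean of at least 6, a set it entered only through its mutant arrays. The age term is the pairing: without it (no replicate block) 438 higher and 296 lower probe sets had an unadjusted p under 0.05, against 894 and 588 with it, and 0 passed in either fit. With limma-trend 1 passed, and with a mean of at least 6, where fewer are tested, 3. With array weights the unadjusted counts were 1453 and 1376. With a mean of at least 4 they were 506 and 232, and at least 6 gave 244 and 135. Counts of one sign were 1824 higher and 1260 lower with a mean of at least 4 and 921 and 659 with a mean of at least 6, which moved the share of higher ones from 42.1% to 59.1% and 58.3%. At a mean of at least 6, 36 were 1.5-fold and 9 were 2-fold higher at all ages. A second quantile normalization gave 1 that was 2-fold lower. Leaving out 1 age, which asks for agreement of 2 pairs in place of 3 and for the estimates is the same as leaving out either array of that age, gave 4657 to 5563 higher and 6128 to 7227 lower of one sign, 163 to 345 higher and 81 to 128 lower at 1.5-fold, 32 to 60 higher and 8 to 13 lower at 2-fold, and 442 to 1131 higher and 242 to 1173 lower at an unadjusted p under 0.05. Without the 6-week arrays the last counts were 1131 and 1173, without the 7-week arrays 442 and 242. The limit of 4 removed 8 of the 15 mitochondria-encoded genes and 2 of the 11 respiratory genes. Among those left, the mitochondria-encoded genes lower at all ages went from 7 to 3, and the respiratory genes higher at all ages numbered 7 as before.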
